A study of Mus musculus with 6 samples.

Results

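To examine metal handling in Med23-deficient hematopoietic stem cells (HSCs), 6 genes were taken by symbol from the deposited tables, and all 6 were found among 34745 genes. They are the metallothionein genes Mt1, Mt2 and Mt3, the metal-responsive transcription factor gene Mtf1, and the zinc transporter genes Slc30a1 and Slc39a10. Bulk RNA-seq had been carried out on HSCs sorted from bone marrow of adult C57BL/6 mice as lineage-negative, Sca1-positive, cKit-positive cells that were CD150+CD34-CD48-. The 3 WT samples, labelled WT(Med23floxp/flowp), carried floxed Med23 alleles without Cre. The 3 KO samples, labelled KO(Mx1-cre;Med23floxp/flowp), carried the same floxed alleles with Mx1-cre, a transgene whose promoter answers to interferon and was switched on by injected poly(I:C). Med23 is a subunit of Mediator, the complex that links transcription factors to RNA polymerase II. Because other interferon-responsive cells also express Mx1-cre, the deletion was not confined to HSCs, and the methods do not say whether the WT mice of this experiment received poly(I:C). Nothing in the labels ties a sample to a separate animal, so the p-values measure the spread between these samples, which may be technical in part. In both groups replicate 3 differed from the other replicates in its Y-linked reads, as given below.

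Metallothioneins are small cysteine-rich proteins that bind zinc and copper and buffer the free metal ion in the cell. When free zinc rises, the zinc-finger protein Mtf1 moves onto metal response elements, short DNA motifs in the promoters of Mt1, Mt2 and Slc30a1, and switches these genes on. Slc30a1 exports zinc across the plasma membrane, Slc39a10 imports it, and the gene for the latter is known to be held down by Mtf1 when zinc is high. Mt1 and Mt2 are widely expressed and are also induced by glucocorticoids and stress, whereas Mt3 is best known from the brain.

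The metallothionein genes are neighbors. On chromosome 8 of the mouse genome (build GRCm38), Mt4, Mt3, Mt2 and Mt1 lie in this order on the plus strand within 43.13 kb. Mt3 (ENSMUSG00000031760) runs from 94152607 to 94154146, Mt2 (ENSMUSG00000031762) from 94172664 to 94173568, and Mt1 (ENSMUSG00000031765) from 94179082 to 94180327, and 5.513 kb separate the last pair. Mtf1 (ENSMUSG00000028890) is on the plus strand of chromosome 4 from 124802104 to 124849800. Slc30a1 (ENSMUSG00000037434) is on the plus strand of chromosome 1 from 191906767 to 191913247, and Slc39a10 (ENSMUSG00000025986) is on its minus strand from 46807544 to 46892852. All 6 are protein-coding. The transcripts of Mt1 and Mt2 share no identical stretch longer than 20 bases, those of Mt2 and Mt3 also none longer than 20, and those of Mt1 and Mt3 none longer than 27. The antisense gene Gm45774 overlaps Mt2, and 1700034H15Rik overlaps Slc30a1 on the opposite strand, as 1110065P20Rik does Mtf1, while Gm28151 overlaps Slc39a10 on its own strand. Strand use in counting is not given in the sources used here, so reads of such partners cannot be told apart from theirs.

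The sequences before the starts of the 3 metallothionein genes are printed to show where, if at all, they hold the core letters of the metal response element. They were taken from RefSeq (GRCm38.p6, plus strand) and end just before the first annotated start, and capitals mark matches to TGCACNC or TGCGCNC on either strand.
Mt3, chr8:94152357-94152606: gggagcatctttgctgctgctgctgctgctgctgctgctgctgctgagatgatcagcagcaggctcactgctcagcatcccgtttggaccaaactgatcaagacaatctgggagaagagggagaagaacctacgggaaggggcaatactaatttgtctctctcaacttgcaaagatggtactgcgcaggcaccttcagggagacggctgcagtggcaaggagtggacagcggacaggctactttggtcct
Mt2, chr8:94172368-94172617: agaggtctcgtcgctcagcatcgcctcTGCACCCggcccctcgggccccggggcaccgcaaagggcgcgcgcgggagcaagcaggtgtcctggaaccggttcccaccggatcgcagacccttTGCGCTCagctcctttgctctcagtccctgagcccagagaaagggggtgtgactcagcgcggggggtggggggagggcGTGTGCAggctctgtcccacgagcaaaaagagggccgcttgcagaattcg
Mt1, chr8:94178839-94179081: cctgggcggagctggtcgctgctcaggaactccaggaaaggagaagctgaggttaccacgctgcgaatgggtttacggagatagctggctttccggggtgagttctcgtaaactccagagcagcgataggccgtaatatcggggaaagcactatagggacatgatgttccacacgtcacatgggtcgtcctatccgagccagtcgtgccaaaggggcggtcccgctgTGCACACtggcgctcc

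In the full windows of 300 bases, of which 250 lie before the RefSeq start and 50 after it, Mt2 held 4 matches, Mt1 held 3 and Mt3 held 1. In Mt2 they were TGCACCC with its first base 223 bases before the start, TGCGCTC at 128 bases before, GTGTGCA on the opposite strand at 50 bases before, and GTGCGCA on the opposite strand at base 5 after it. In Mt1 they were TGCACAC at 23 bases before the start, and TGCACTC and TGCGCTC at bases 3 and 21 after it. The only match in Mt3, TGCACAC, began at base 28 after the start. Slc30a1 held 2 matches, both on the opposite strand (GAGTGCA at 43 bases before and GAGCGCA at base 31 after the start), while the window of Mtf1 and both windows of Slc39a10 held none. The motifs cannot take the same bases on the same strand. Of 32807 RefSeq windows of this length, 25.7% held at least 1 match, 7.12% at least 2, 1.97% at least 3 and 0.518% at least 4. These are matches of letters, not binding sites, and a window without them says only that the letters are not there. The part of such matches in the levels of these genes was not tested.

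Libraries held between 3537269 and 8131344 reads counted on genes. At these depths 3 counts, taken as the smallest detected signal, were worth between 0.369 and 0.848 CPM, the unit that puts libraries of unequal depth on the same scale. Med23 itself, the targeted gene, had normalized levels of 47.6, 70.8 and 24.1 CPM in the WT samples, in the order of their numbers, and of 31.6, 29.8 and 36.8 CPM in the KO samples, so the library labelled WT replicate 3 lay below every KO library. Its log2 fold change, KO over WT, was -0.54 (SE 0.41, edgeR adjusted p = 0.99), and reads over the whole gene do not separate the deleted exons from the rest. All 12 HSC markers examined passed the filter on low counts and summed to between 2645 and 2984 CPM in WT and between 2425 and 2685 CPM in KO. Reads of 4 Y-linked genes numbered 1 in the library labelled WT replicate 3, 0 in KO replicate 3 and at least 1036 in each of the others, so the libraries of replicate number 3 stand apart in both groups.

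Of the 6 members, Mt1, Mtf1, Slc30a1 and Slc39a10 passed the filter on low counts, and 0 of these 4 passed the adjusted threshold of 0.05 in edgeR's test, against 0.0719% of the 12513 genes tested. Also in DESeq2 there were 0, against 0.971% of its genes, and at an unadjusted p under 0.05 in edgeR there was 1, Mt1, against 5.71% of all genes. The estimate for Mt1 was lower in KO than in WT HSCs. In WT replicates 1 to 3 there were 15, 26 and 19 Mt1 reads, and in KO replicates 1 to 3 there were 2, 1 and 5. Scaled for depth by edgeR's TMM method, these reads were 3.08, 3.20 and 5.87 CPM in WT and 0.405, 0.182 and 1.01 CPM in KO. Every KO library was thus below every WT library, as for 6.15% of all genes tested, and the library labelled WT replicate 3 was the highest of all. The mean was 4.05 ± 1.58 CPM in WT and 0.533 ± 0.429 CPM in KO (SD, n = 3 each), and the log2 fold change was -2.87 (SE 1.20, 95% interval from -5.53 to -0.21). In edgeR's quasi-likelihood test the unadjusted p was 0.037 and the p adjusted over all genes tested was 0.81. An exact two-sided permutation test gave p = 0.1, the smallest that 3 samples against 3 allow.

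The reads behind this difference were few. Over each group, 60 Mt1 reads among 16419023 in WT and 8 among 15174378 in KO gave a ratio of 0.144, with an exact 95% interval from 0.0596 to 0.303. That interval covers counting error only, since amplified reads without molecular identifiers are not independent molecules and the spread between libraries is not in it. Between same-numbered samples the difference in log2(CPM + 0.5) was -1.98, -2.44 and -2.08. Leaving out the library labelled WT replicate 3 gave a log2 fold change of -2.52 (edgeR adjusted p = 0.82). Of all genes tested, 2.77% were lower at an unadjusted p under 0.05. At a depth like that of Mt1, between 34 and 136 reads over the 6 libraries, 1088 genes were tested, of which 7.26% were lower and 7.63% higher in every KO library. The median SE of their log2 fold changes was 1.27, against 0.42 over all genes tested. In bulk RNA, fewer cells of a kind and less RNA per cell cannot be told apart.

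Reads of skeletal muscle genes, taken as a sum, were lower in KO, as those of Mt1 were. The list of 20 muscle markers was chosen with earlier results of these data known, so its shares only describe it. Of these markers 16 were tested, and 14 of the 16 were lower in every KO than in every WT library, against 6.15% of all genes tested. In edgeR 3 passed the adjusted threshold, all lower, against 0.0559% of all genes. Their summed level was between 199.95 and 450.9 CPM in WT and between 14.8 and 36.4 CPM in KO, and 11 of the 20, among them Actc1, Des, Myh1 and Myl1, were at 0 in all KO libraries. For each 100 muscle reads there were 1.12, 1.60 and 1.30 Mt1 reads in WT and 2.74, 0.5 and 4 in KO. Mt1 and the muscle markers therefore separated the groups in the same direction, while the ratio in KO, which rests on 2, 1 and 5 Mt1 reads, lay on both sides of that in WT. Within KO, replicate 2 had the highest summed muscle level (36.4 CPM) and the lowest Mt1 level (0.182 CPM). The part of this RNA in the Mt1 difference was not tested. Bone marrow stroma markers summed to between 5.33 and 41.4 CPM in WT and between 4.004 and 20.4 CPM in KO, and these sums overlapped. Most of the stroma reads came from Vcam1 and Col1a1, whereas Col3a1 had 6, 4 and 5 reads in WT and Cxcl12 had 1, 2 and 4, and both were at 0 in all KO libraries, as was Lepr with 1 read in WT.

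**Figure D1:**
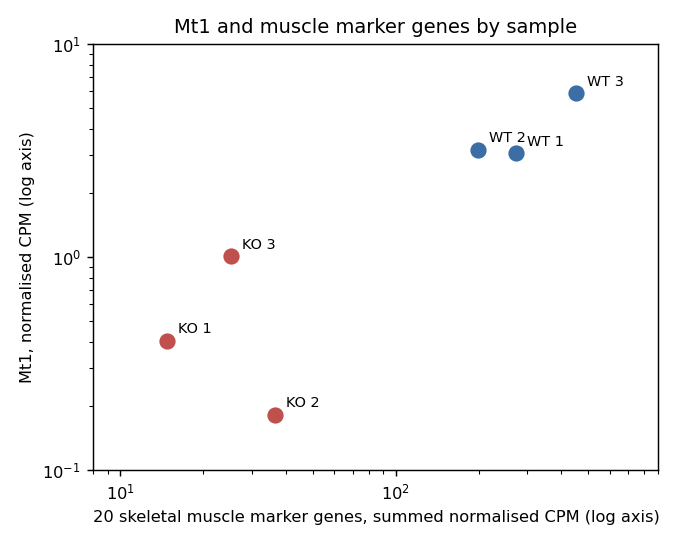
Mt1 (vertical, normalized CPM, log axis) against the summed level of 20 skeletal muscle marker genes (horizontal, normalized CPM, log axis), 1 point per library, labelled by group and replicate. The 3 WT libraries sit at 3.08 to 5.87 CPM of Mt1 and the 3 KO libraries at 0.182 to 1.01 CPM, and the groups are separate on both axes.

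Across the 6 samples, the 5 genes whose log2(CPM + 0.5) followed Mt1 most closely were Atp2a1 (Pearson r = 0.996), Acta2 (0.991), Hist1h1c (0.990), Synpo2l (0.988) and Ecscr (0.987), out of 12512 others tested. Atp2a1 encodes the calcium pump of fast skeletal muscle, Acta2 smooth muscle actin, Hist1h1c a linker histone, and Ecscr an endothelial surface protein. Atp2a1 had 40, 59 and 61 reads in WT and 2, 0 and 5 in KO. The most abundant of the 5, Hist1h1c, had 702, 1143 and 741 reads in WT and 263, 290 and 450 in KO. These points share their libraries and the order of the groups, so the correlations only describe which genes were lower in the same libraries.

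Mt2, the close relative of Mt1, was near the limit of detection. There were 1, 4 and 4 Mt2 reads in WT and 1, 0 and 1 in KO, too few to pass the filter, and single reads occurred in both groups. The summed reads were 9 in WT and 2 in KO, a ratio of 0.240 with an exact 95% interval from 0.0253 to 1.16 for counting error. With no filter on low counts, the edgeR log2 fold change was -2.04 (SE 1.84, adjusted p = 0.76). A lower level of Mt2 in KO was therefore not detectable at this depth. The genes most like Mt2 over the 6 samples were Dnajc19 (r = 0.999), Pbx4 (0.986), Kdm2a (0.982), Zfp354a (0.980) and Nt5dc3 (0.979), which rests on at most 4 Mt2 reads in a library.

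To compare both genes without any scaling between libraries, the share of Mt1 among Mt1 and Mt2 reads was taken. Mt1 made up 93.8, 86.7 and 82.6% in WT and 66.7, 100 and 83.3% in KO. The means were 87.7 ± 5.64% and 83.3 ± 16.7% (SD, n = 3 each), and an exact two-sided permutation test gave p = 0.8. In KO the shares rest on 3, 1 and 6 reads, so the groups overlap widely and a difference between Mt1 and Mt2 could not be resolved.

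Mt3 went the other way in these counts. No Mt3 read was found in any WT library, and 5, 2 and 4 reads were found in KO replicates 1 to 3. With a floor set at 3 counts over the whole WT group of 16419023 reads, the 11 reads in KO were 3.97-fold above that floor. KO replicate 2, with 2 reads, was itself below the 3 counts taken as the smallest detected signal in a library. The exact 95% interval of the ratio of summed reads, KO over WT, began at 2.72. As for Mt1, that interval covers counting error only and leaves out the spread between libraries. Mt3 did not pass the filter. Without a filter the unadjusted p in edgeR was 0.037 and the adjusted p was 0.67, and DESeq2 gave it no adjusted p. Of the 34745 genes, 211 (0.607%) had no read in WT and reads in every KO library, and 244 (0.702%) had the reverse. No read in WT and at least 11 in KO were found for 343 genes (0.987%), and the reverse for 404 (1.16%). Only 19068 of the 34745 genes had a read in any library, so the shares among detected genes are larger. Mt4, the remaining gene of the cluster, was at 0 in all 6 libraries.

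**Figure D2:**
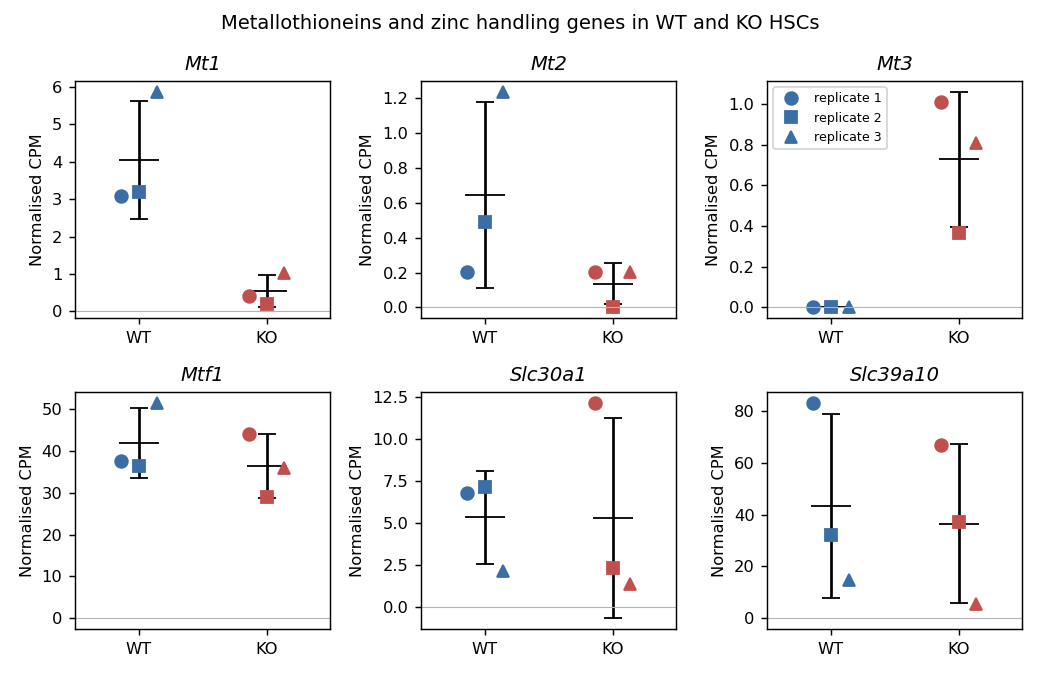
Normalized CPM (vertical, linear axes that differ between panels) of the 6 genes in WT and KO HSCs, 1 symbol per library with its shape giving the replicate number, and horizontal bars with whiskers for the mean and SD of 3 samples. Mt1 is lower in every KO library, Mt3 is at 0 in every WT library, and Mtf1, Slc30a1 and Slc39a10 overlap between the groups.

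Mtf1, the regulator, overlapped between the groups. It had 184, 297 and 167 reads in WT and 218, 159 and 178 in KO, or 37.7, 36.5 and 51.6 CPM in WT and 44.2, 28.9 and 36.0 CPM in KO. The lowest library was KO replicate 2 and the highest the one labelled WT replicate 3, with the others interleaved. The means were 41.9 ± 8.39 and 36.4 ± 7.62 CPM (SD, n = 3 each). The log2 fold change was -0.20 (SE 0.34, 95% interval from -0.97 to 0.56, edgeR adjusted p = 0.997), which leaves room for a change in either direction of up to the ends of that interval. Within WT the highest library was 1.41-fold above the lowest and within KO 1.53-fold, the narrowest ranges of the members that passed the filter.

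Slc30a1, the exporter that Mtf1 induces, varied more within groups than between them. It had 33, 58 and 7 reads in WT and 60, 13 and 7 in KO, which is 6.77, 7.13 and 2.16 CPM in WT and 12.2, 2.37 and 1.42 CPM in KO. KO replicate 1 was the highest library and KO replicate 3 the lowest, an 8.58-fold range within KO. The means of 5.35 ± 2.77 and 5.31 ± 5.95 CPM (SD, n = 3 each) were nearly equal, with a log2 fold change of -0.02 (SE 1.03, 95% interval from -2.31 to 2.26, edgeR adjusted p = 0.999). The sign rests on single libraries, because without KO replicate 1 the log2 fold change was -1.49, and it was 0.43 without KO replicate 3. Without WT replicate 1, WT replicate 2 or KO replicate 2 it was also above 0 (0.17, 0.24 and 0.33).

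Slc39a10, the importer, spread widely within both groups, and its libraries stood in the same order of replicate numbers in each. The reads were 407, 261 and 48 in WT and 331, 204 and 27 in KO, or 83.4, 32.1 and 14.8 CPM in WT and 67.1, 37.1 and 5.46 CPM in KO. In both groups replicate 1 was the highest and replicate 3 the lowest library, with a 5.63-fold range in WT and a 12.3-fold range in KO. The log2 fold change between the groups was -0.25 (SE 0.79, 95% interval from -1.998 to 1.49, edgeR adjusted p = 0.997). It turned to 0.63 without WT replicate 1 and to 0.26 without KO replicate 3, and was -1.03 without KO replicate 1 and -0.66 without WT replicate 3. The libraries of replicate number 3, lowest for Slc39a10 in each group, are also those with at most 1 Y-linked read, whose part in this pattern was not tested. Without both of them the log2 fold change was -0.13.

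On the FPKM scale, which divides by a length assigned to each gene, the order of the members differed between the groups. In WT it was Mt1 (7.24 ± 2.35 FPKM), Slc39a10 (5.56 ± 4.76), Mtf1 (2.74 ± 0.378), Mt2 (1.10 ± 0.848) and Slc30a1 (0.904 ± 0.494), with Mt3 at 0 (SD, n = 3). In KO it was Slc39a10 (4.80 ± 4.08 FPKM), Mtf1 (2.47 ± 0.541), Mt3 (1.37 ± 0.628), Mt1 (0.978 ± 0.747), Slc30a1 (0.925 ± 1.05) and Mt2 (0.243 ± 0.211). Among neighbors in these orders, the ranges of Mtf1 and Mt2 and of Slc30a1 and Mt3 did not overlap in WT. In KO the ranges of Mtf1 and Mt3 did not overlap, by a margin of 2.02 against 1.95 FPKM, and all other neighbors in both orders overlapped. Mt1 was above Mtf1 in every WT library (5.85 to 9.95 against 2.45 to 3.16 FPKM) and below it in every KO library (0.351 to 1.80 against 2.02 to 3.07 FPKM). That order depends on the lengths used, which the deposited values imply to be 14919 bases for Mtf1 and 540 for Mt1. By reads, Mtf1 was above Mt1 in every library. In WT there were 184, 297 and 167 Mtf1 reads against 15, 26 and 19 of Mt1. Within each library, Mt1 stood between the 80.5 and 87.2 percentile of all listed genes in WT and between the 61.4 and 70.5 percentile in KO. Many listed genes had no read, and a gene at 0 stood between the 27.5 and 29.0 percentile. The lowest of the KO values, 61.4, rests on 1 Mt1 read in KO replicate 2.

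The remaining zinc transporters showed no change between the groups that passed the test. Of 10 exporter genes of the Slc30 family 6 were tested, 3 with a higher and 3 with a lower estimate, and 0 passed the adjusted threshold, for which the background was 0.0719% of all genes. At an unadjusted p under 0.05 there were also 0 in edgeR, and 0 passed with DESeq2. The median log2 fold change was -0.01, as over all genes tested (-0.01), but it was 0.39 and 0.49 on FPKM with a filter and ran from -0.12 to 0.32 with 1 sample left out, highest without WT replicate 2. Slc30a6, a transporter of the Golgi apparatus, had the smallest unadjusted p of the tested exporters, with a log2 fold change of 0.79 (SE 0.60). It was followed by Slc30a9, a mitochondrial transporter, with 0.43 (SE 0.37). Slc30a3, Slc30a8 and Slc30a10, of which Slc30a8 loads the insulin granules of pancreatic beta cells, had no read in any library.

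Of 14 importer genes of the Slc39 family 11 were tested, 3 with a higher and 8 with a lower estimate, and 0 passed in edgeR or DESeq2 or at an unadjusted p under 0.05 in edgeR. Their median log2 fold change was -0.25. Slc39a9 was the only importer whose groups did not overlap, at 71.3 ± 15.1 CPM in WT and 100.7 ± 9.19 CPM in KO, and its log2 fold change was 0.50 (SE 0.26, edgeR unadjusted p = 0.084, adjusted p = 0.93). Over all genes tested, 6.25% were higher in every KO library. Slc39a11 had the next smallest p among the importers, with a log2 fold change of -0.43 (SE 0.34).

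By FPKM averaged over the 6 samples, the most abundant zinc transporters were Slc39a1 (60.5), a plasma membrane importer, Slc39a11 (33.6), Slc30a5 (17.7), which acts in the early secretory pathway, and Slc39a9 (16.4). The 2 members, Slc39a10 (5.18) and Slc30a1 (0.914), were the tenth and the sixteenth of the 17 tested. Slc39a1 varied little, with a 1.11-fold range in WT and a 1.44-fold range in KO, while Slc30a5 spanned 21.7-fold within WT. KO replicate 3 was the lowest library for 7 of the 17 transporters, against 15.6% of all genes tested, and the library labelled WT replicate 3 for 3, against 24.6% of all genes.

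**Figure D3:**
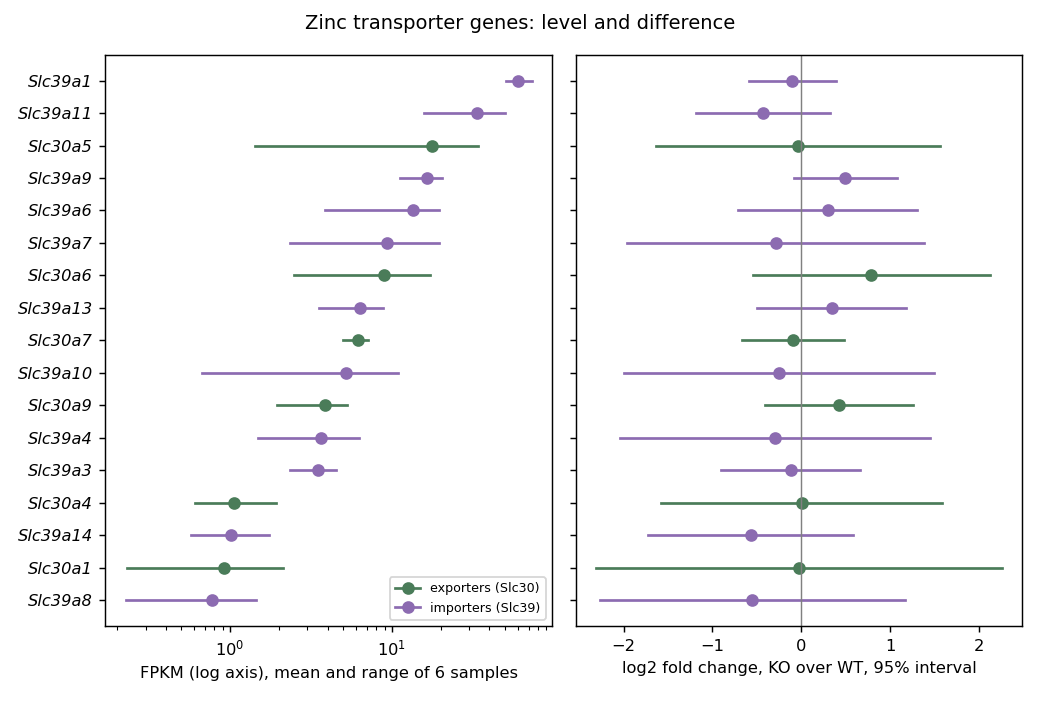
Left, FPKM of the 17 zinc transporter genes tested (horizontal, log axis), with the mean as a point and the range over 6 samples as a line. Right, their log2 fold change, KO over WT, with its 95% interval; every interval crosses 0, Slc39a10 spans 0.668 to 10.9 FPKM on the left, and Slc39a1 is highest at 60.5 FPKM.

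Genes known to answer to metal gave no call either. Of 14 such genes 8 were tested, the members Mt1, Slc30a1 and Slc39a10 among them. All 8 had a lower estimate in KO, while 0 passed the adjusted threshold in edgeR or DESeq2. The direction of Mt1, a member, is part of that count, and the signs of 2 others rest on single libraries or settings: Slc30a1 turned in 5 of 13 alternatives and Slc39a10, the gene that Mtf1 is known to repress, in 2 of 16. Their median log2 fold change was -0.22, and 49.5% of all genes tested had a higher estimate. At an unadjusted p under 0.05 there were 2, Mt1 and Ndrg1, both lower, against 2.77% of all genes. Ndrg1, a gene induced by nickel, hypoxia and other stresses, was at 124.6 ± 12.6 CPM in WT and 76.6 ± 9.20 CPM in KO, lower in every KO library, and its log2 fold change was -0.70 (SE 0.24, edgeR adjusted p = 0.66). Hmox1, the heme-degrading enzyme, had a log2 fold change of -0.30 (SE 0.50).

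Lists of related responses were examined in the same way. Of 10 copper handling genes 9 were tested, 1 with a higher and 8 with a lower estimate, with a median of -0.23. Slc31a1, the copper importer, had a log2 fold change of -0.72 (SE 0.38, edgeR adjusted p = 0.93) and Sod1, the copper-zinc superoxide dismutase, -0.39 (SE 0.30). All 13 oxidative stress genes were tested, 3 with a higher and 10 with a lower estimate, with a median of -0.19. Keap1, the repressor of the factor Nfe2l2, had a log2 fold change of -0.41 (SE 0.26), and Srxn1, which repairs oxidized peroxiredoxins, -0.96 (SE 0.66). Of 11 heat shock genes 9 were tested, 1 with a higher and 8 with a lower estimate, with a median of -0.20. There the mitochondrial chaperonin Hspd1 was at -0.47 (SE 0.23) and the co-chaperone Bag3 at -0.71 (SE 0.60). None of these genes passed the adjusted threshold in edgeR or DESeq2, or an unadjusted p under 0.05 in edgeR.

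Glucocorticoid-responsive genes, listed because glucocorticoids induce Mt1 and Mt2, were all tested. Of the 12, 4 had a higher and 8 a lower estimate, and 0 passed the adjusted threshold in edgeR or DESeq2. The median was -0.28, but it lay between -0.14 and -0.044 with a minimum of 10 counts, with the replicate block and on the FPKM scale, and was -0.11 without WT replicate 2. At an unadjusted p under 0.05 there were 3, all lower in every KO library, against 2.77% of all genes lower at that p and 6.15% lower in every KO library. Tsc22d3, which encodes the leucine zipper protein GILZ, was at 494.7 ± 83.7 CPM in WT and 323.7 ± 60.8 CPM in KO, and its log2 fold change was -0.61 (SE 0.22, edgeR adjusted p = 0.71). Pik3ip1, an inhibitor of PI3 kinase, had a log2 fold change of -0.48 (SE 0.20, edgeR adjusted p = 0.81). The third, Fkbp5, a co-chaperone of the glucocorticoid receptor that was named after its values were seen, had -0.68 (SE 0.31, edgeR adjusted p = 0.87). Genes of the interferon response, listed because poly(I:C) induces interferon, had 8 higher and 8 lower estimates among 16 tested of 17, a median of 0.02, 0 past the adjusted threshold in edgeR or DESeq2 and 0 at an unadjusted p under 0.05 in edgeR. That median turned to -0.27 without both samples of replicate number 3 and to -0.39 without KO replicate 3. Bst2 had a log2 fold change of -0.39 (SE 0.24) and Irf9 one of 0.43 (SE 0.28).

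**Figure D4:**
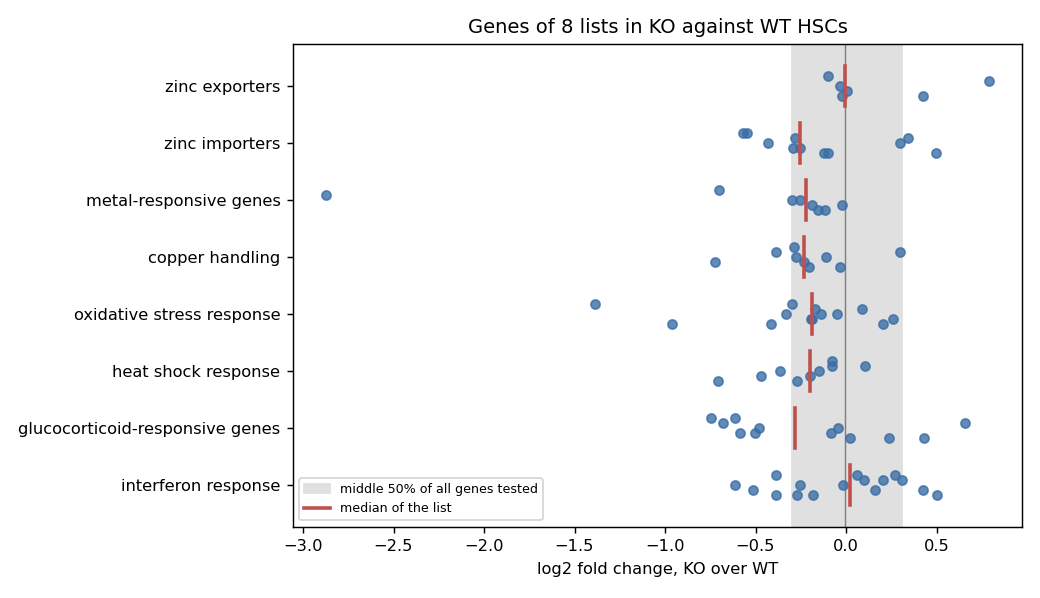
Log2 fold change, KO over WT (horizontal), of every tested gene in 8 lists (rows), with the list median as a red bar and the middle 50% of all 12513 genes tested shaded. Medians run from -0.28 for glucocorticoid-responsive genes to 0.02 for the interferon response, and Mt1, at -2.87 among the metal-responsive genes, is the farthest point.

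Genes around the cluster had estimates nearer to 0 than that of Mt1. Among the genes examined from Gnao1 to Herpud1 on chromosome 8, the log2 fold changes were 0.16 for Nudt21 (SE 0.36), 0.11 for Ogfod1 (SE 0.35) and 0.57 for Bbs2 (SE 0.65) on the side of Mt4. On the far side of Mt1 they were -0.47 for Nup93 (SE 0.52) and -0.06 for Herpud1 (SE 0.28). Nup93, a nuclear pore gene, starts 35.48 kb from the start of Mt1 and is the nearest of these tested neighbors. None of the 5 passed the adjusted threshold in edgeR or DESeq2, none had an unadjusted p under 0.05 in edgeR, and the groups overlapped for all 5. Whether any of them differs from Mt1 in its response was not tested.

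**Figure D5:**
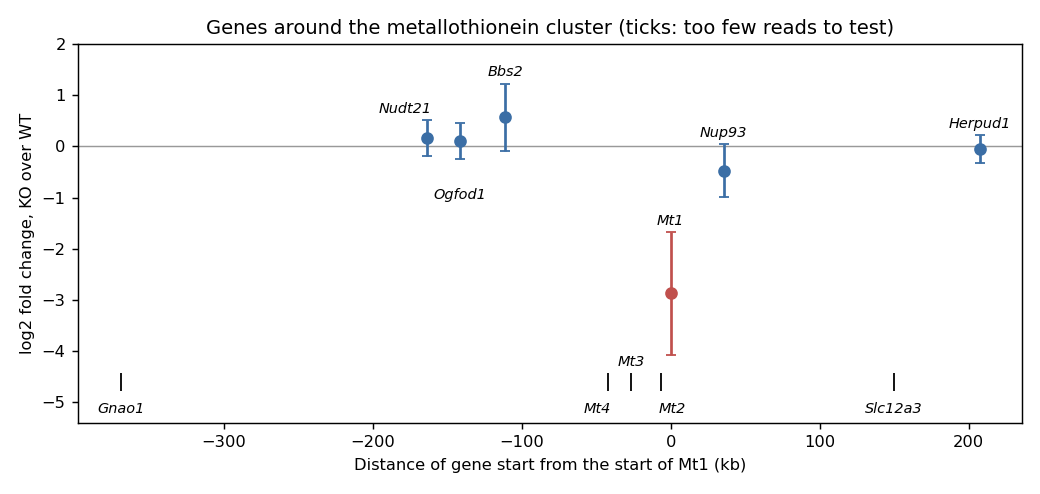
Log2 fold change, KO over WT, with its SE (vertical) of Mt1 and 5 tested genes around the metallothionein cluster against the distance of their starts from the start of Mt1 in kb (horizontal). Mt1 lies at -2.87 and the other 5 between -0.47 and 0.57; ticks mark genes with too few reads to test, Mt2, Mt3 and Mt4 among them.

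For other cell types that a sort could hold, the summed marker levels overlapped between the groups. Granulocyte markers, of immature and mature cells, summed to between 2.95 and 16.1 CPM in WT and between 3.28 and 228.7 CPM in KO. KO replicate 3 alone held 867 reads of Mpo, 115 of Elane and 83 of Ctsg. These are primary granule genes of immature myeloid cells. In that library the later markers S100a8 and S100a9 had 12 and 17 reads, and Ltf and Mmp8 had none. Erythroid markers summed to between 44.5 and 117.8 CPM in WT and between 30.9 and 67.0 CPM in KO. Macrophage markers summed to between 19.3 and 90.6 CPM in WT and between 18.2 and 50.6 CPM in KO. For B cell markers these ranges were 49.0 to 72.9 CPM in WT and 60.4 to 87.2 CPM in KO, for T and NK cell markers 22.1 to 51.0 and 20.03 to 24.9 CPM, and for megakaryocyte markers 454.9 to 737.7 and 619.7 to 669.0 CPM. Single markers did separate the groups. Of 8 megakaryocyte markers, all tested, Ppbp, Gp9 and Selp were higher and Vwf was lower in every KO library. Over all genes tested, these shares were 6.25% higher and 6.15% lower. At an unadjusted p under 0.05 in edgeR, Ppbp, Selp and Itga2b were higher and Vwf was lower. The background at that p was 5.71% of all genes in either direction. Gp9 did not reach that p, and Itga2b overlapped between the groups. Not all of these markers are confined to other cells. The paper stained CD41, the protein encoded by Itga2b, on HSCs themselves and reported a larger CD41+ share in KO. Of 4 erythroid markers tested, 1, Epor, was lower in every KO library, as for 6.15% of all genes tested. Its log2 fold change was -2.28 (SE 0.66, edgeR adjusted p = 0.48). The macrophage marker Adgre1, which did not pass the filter, had no read in WT and 2, 11 and 20 reads in KO. Of the 34745 genes, 0.607% had no read in WT and reads in every KO library. Among 5 macrophage markers tested, 1 had a higher and 4 a lower estimate in KO. The part of any of these in the differences of the members was not tested.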

How the data were processed

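Bulk RNA-seq of 3 WT and 3 KO samples of sorted HSCs was used. Per gene, the authors deposited raw read counts and FPKM, the latter equal to the count over its library total and over 1 length (differences between libraries of at most 0.0703%). The submitters' processing notes name TopHat, HTSeq and mm10; versions, annotation and strand setting are not given in the sources used here. The labels name SMART-Seq v4 amplification, the methods a TruSeq kit, and no molecular identifiers.

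Tests on counts used edgeR 4.0.16 (R 4.3.3): filterByExpr, TMM scaling, robust dispersions and its quasi-likelihood test, with p-values adjusted by Benjamini-Hochberg over 12513 genes and a threshold of 0.05. Normalized CPM are counts scaled to the TMM-adjusted library size. For the members, log2(CPM + 0.5) was compared by exact permutation over samples. The steps were tested on simulated data. Depth ran from 3537269 to 8131344 reads, and samples of a group differed by more than counting noise (chi-square per degree of freedom from 24.4 to 50.0 over pairs).

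Coordinates come from GENCODE M21 (GRCm38), which held 34267 of the 34745 identifiers. Besides the members and Med23, the text names of each pathway list the 2 tested genes with the smallest unadjusted p, the tested neighbors of the cluster (1 of them is not reported here) and the 5 genes most like Mt1 and Mt2. The members and lists were chosen with earlier results of these data known. Alternatives were DESeq2 1.42.0, upper-quartile scaling, no filter, a minimum of 10 counts in each sample, the replicate block, limma 3.58.1 on log2(FPKM + 1) with a mean FPKM of at least 1 or no filter and on log2(FPKM + 0.1), voom with sample quality weights, and each sample left out in turn. After the data were seen, leaving out both samples of replicate number 3 was added, and the block with no filter for Mt2 and Mt3.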

Additional observations from a re-analysis of the deposited data

How the results depend on the processing

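At the adjusted threshold, 9 genes passed in edgeR (2 higher, 7 lower in KO), 149 in DESeq2 (59 higher, 90 lower), 15 on log2(FPKM + 1) with the FPKM filter (5 higher), and 0 in voom (0 higher, 0 lower), where 948 had an unadjusted p under 0.05. The count of higher genes was 4 with no filter, 4 with a minimum of 10 counts in each sample (3 lower), 1 on log2(FPKM + 1) with no filter and 0 without both samples of replicate number 3. With 1 sample left out the total ran from 5 to 11 (5 without WT replicate 1), with 0 to 2 higher and 5 to 9 lower. Mt1 kept a lower estimate in 15 alternatives, from -3.68 to -2.09 with an adjusted p from 0.136 to 0.9999, and was not tested under the minimum of 10 counts.

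Same-numbered WT and KO samples deviated together with correlations of 0.170, 0.032 and 0.170 across genes, against -0.173 to 0.035 between unlike numbers. Replicates 1 and 3 correlated best with their own number, while WT replicate 2 did so with KO replicate 1 (0.035). The labels do not pair the numbers, so the main fit had no block, and whether same-numbered samples share a factor was not tested. In edgeR 1005 genes had an unadjusted p under 0.05 with the replicate block, against 715 without it. With the replicate block 5 genes passed (0 higher), and Mt1 had a log2 fold change of -3.05 (adjusted p = 0.63), Slc39a10 one of -0.46 (SE 0.40) and Slc30a1 one of -0.43. The block changed no call of a member.

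With 1 sample left out, Slc30a1 ran from -1.49 to 0.43, Slc39a10 from -1.03 to 0.63, Herpud1 from -0.23 to 0.19, Nudt21 from -0.024 to 0.44, Nup93 from -0.92 to 0.26, Ogfod1 from -0.12 to 0.23, and the Mt1 share difference from -12.7 to 3.99 percentage points (above 0 without KO replicate 1). List medians then ran from -0.28 to -0.029 (copper), -0.34 to -0.11 (glucocorticoid), -0.39 to 0.11 (interferon), -0.59 to -0.19 (metal-responsive), -0.12 to 0.23 (cluster neighbors) and -0.12 to 0.32 (exporters). Herpud1 was at 0.011 in the 3 FPKM settings, 0.051 in voom and 0.17 without both samples of replicate number 3, where Slc30a1 was at 0.068, Nudt21 at -0.017 and the interferon median at -0.27. The exporter median was 0.39 on log2(FPKM + 1) and 0.49 on log2(FPKM + 0.1) with the FPKM filter. The glucocorticoid median was -0.087 with the minimum of 10 counts, -0.078 with the block, -0.14 on log2(FPKM + 1) with and without the filter, and -0.044 on log2(FPKM + 0.1). The cause of these shifts was not tested. No gene of a pathway list passed the adjusted threshold under any alternative run. Depth limits Mt1, Mt2 and Mt3 most, with at most 26 reads in a library.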
